A study of Mus musculus with 18 samples.

Results

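The Toll-like receptor genes other than Tlr4, which encodes the LPS receptor, were followed in sorted lung mononuclear phagocytes. The rule was the gene symbol: Tlr1, Tlr2, Tlr3, Tlr5, Tlr6, Tlr7, Tlr8, Tlr9, Tlr11 and Tlr13, which made 10 of the 21254 genes in the count table. All 10 passed the filter on low counts, as did 15811 genes of the table, so no receptor was left out of the tests. Tlr12, the remaining mouse receptor gene, was not among them and appears only among the closing observations.

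Toll-like receptors are membrane proteins whose leucine-rich repeats bind microbial molecules and whose cytoplasmic TIR domain recruits adaptors. TLR2, which pairs with TLR1 or TLR6 to detect bacterial lipoproteins, and the flagellin receptor TLR5 act at the cell surface. The others act in endosomes: TLR3 binds double-stranded RNA, TLR7 and TLR8 belong to the single-stranded RNA receptors, TLR9 detects unmethylated CpG DNA, TLR11 detects profilin of protozoa and TLR13 a sequence of bacterial ribosomal RNA. All of them except TLR3 signal through MyD88, and the endosomal receptors depend on the chaperone UNC93B1 to leave the endoplasmic reticulum.

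The libraries were made from 3 sorted lung populations of 2 genotypes, with 3 libraries in each of the 6 groups and 18 in all. Every mouse, of either genotype, was 3 to 5 months old on a C57BL/6 background, received nebulized LPS (12.5 mg in 5 ml, over 15 min) and was killed 24 h later, so no unexposed lung was compared. WT mice carried B6.Cx3cr1tm1.1(cre)Jung/J without a floxed ezrin allele, and Ezr-KOm mice were Ez fl/fl with Cx3cr1Cre, so that other cell types with Cx3cr1 expression could also lose the allele. The sorts took monocyte-derived macrophages (moMs: Ly6C+MHC-II-), transitional interstitial macrophages (tnsIMs: Ly6C+MHC-II+, named trIM in the labels) and mature interstitial macrophages (matIMs: Ly6C-MHC-II+), all CD45+CD11b+. The labels number the libraries 1 to 3 and do not say whether a number marks a mouse or a sort day, so the p-values measure the spread between these libraries.

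Library totals ran from 16512783 to 48460995 reads. The highest was tnsIM Ezr-KOm replicate 2, and all others lay at or below 27709052. Levels below are read counts scaled to depth (CPM) on totals scaled by TMM. Ezr was lower in the Ezr-KOm than in the WT libraries of each population without overlap, at 160.0 to 282 against 497 to 593 CPM in moMs, 126 to 234 against 515 to 679 in tnsIMs and 93.9 to 167 against 611 to 741 in matIMs. Its log2 fold change was -1.20 ± 0.24 (SE) in moMs (adjusted p = 0.0549), -1.62 ± 0.24 in tnsIMs (0.0037, and 0.051 without tnsIM WT replicate 1) and -2.29 ± 0.25 in matIMs (7.7e-05), all by edgeR. The moM difference passed the test when the replicate number entered as a block (-1.26, adjusted p = 0.0019, edgeR) and with DESeq2 (0.0010). Of 26 alternative fits in all, 7 called it and 19 did not, with adjusted p-values up to 0.38 (edgeR). The sort genes followed the gates: H2-Aa was at 414 to 647 CPM in WT moMs and 5689 to 7307 in WT matIMs, and Ly6c2 at 469.8 to 488 and 33.1 to 69.1. The 6 interstitial macrophage markers summed to 3174 to 4048 CPM in WT moMs and to 2299 to 2953 in WT matIMs, so the sum was not highest in the population named for them. Within that list C1qa did run the other way, at 79.8 to 106 and 235 to 381 CPM. The 4 markers of mature dendritic cells summed to 33.0 to 72.3 CPM in WT moMs, 381 to 449 in WT tnsIMs and 4777 to 6438 in WT matIMs, with Ccr7 at 1481 to 2019 CPM in the last. Zbtb46, a transcription factor of conventional dendritic cells, was at 2.39 to 4.93 CPM in WT moMs and 100.2 to 134 in WT matIMs, and 5 epithelial markers reached 2319 to 3941 CPM in WT tnsIMs against 35.9 to 65.5 in WT moMs. The moM, tnsIM and matIM names are therefore used for the gates. In these bulk libraries, fewer cells of a type and less RNA per cell cannot be told apart.

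Tlr2 was the receptor with the highest level per transcript length in every group, followed by Tlr13, Tlr1 and Tlr7. In WT moMs, reads scaled by exon length and depth (RPKM, over the union of exons) averaged 279 for Tlr2, 83.2 for Tlr13, 22.2 for Tlr1, 17 for Tlr7, 9.80 for Tlr8 and 7.91 for Tlr6, against 0.607 to 1.19 for Tlr9, Tlr5, Tlr11 and Tlr3. The first 4 places did not overlap with their neighbours in the order, whereas Tlr8 overlapped Tlr6 and neighbours among the last 4 overlapped. In Ezr-KOm moMs Tlr1 also overlapped Tlr7. In WT matIMs the first 4 kept their order, at 137, 28.3, 17.8 and 5.13 RPKM, Tlr11 stood seventh at 1.63 and Tlr5 last at 0.373. The 10 levels together came to 423 ± 41.0 RPKM (SD, n = 3) in WT moMs, 320.4 ± 27.7 in WT tnsIMs and 197 ± 8.36 in WT matIMs, and in Ezr-KOm libraries the sums were 411 ± 47.1, 326 ± 59.9 and 197 ± 5.27. Tlr2 alone made up between 66.1% and 74.9% of the summed level on average in the 6 groups. Tlr7, Tlr8 and Tlr13 together made up 25.9% ± 3.58 in WT moMs, 15.8% ± 3.86 in WT tnsIMs and 18% ± 3.75 in WT matIMs.

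**Figure D1:**
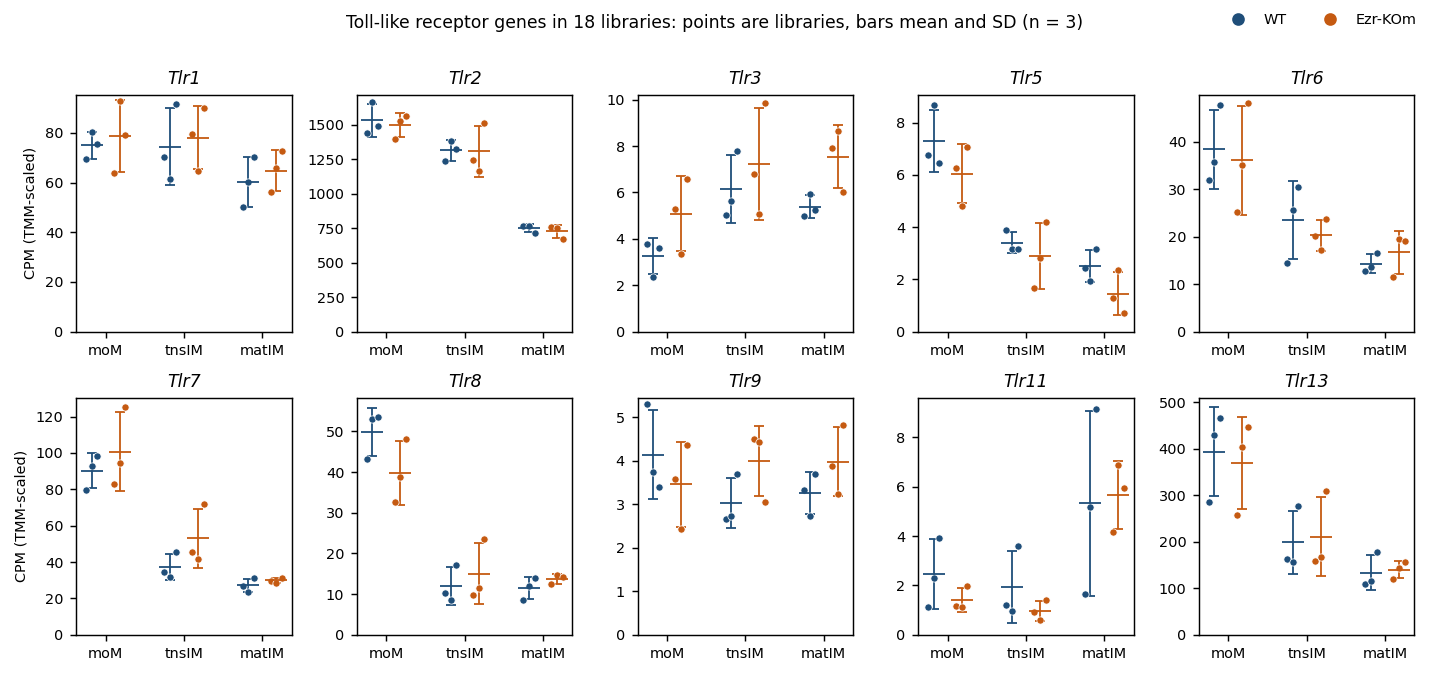
Level of each receptor gene (vertical axis, TMM-scaled CPM from 0, a scale of its own in each panel) in the 3 populations, WT in blue and Ezr-KOm in orange. Points are the 3 libraries of a group and bars their mean and SD; Tlr2, Tlr7, Tlr8, Tlr6, Tlr5 and Tlr13 sit lower in matIMs than in moMs with no overlap in either genotype, and the genotypes overlap in every panel and population except Tlr3 in matIMs.

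Tlr1 and Tlr6 share sequence. They lie next to each other on chromosome 5 (GRCm39, minus strand, Tlr1 at 65082022 to 65090906 and Tlr6 at 65109374 to 65117440), with 18.5 kb between them, and their coding sequences hold an identical run of 229 bases. The run is at chr5:65082880-65083108 in Tlr1 and at chr5:65111171-65111399 in Tlr6, and is shown because a read that lies wholly inside it matches both genes:

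Tlr1 and Tlr6 shared run: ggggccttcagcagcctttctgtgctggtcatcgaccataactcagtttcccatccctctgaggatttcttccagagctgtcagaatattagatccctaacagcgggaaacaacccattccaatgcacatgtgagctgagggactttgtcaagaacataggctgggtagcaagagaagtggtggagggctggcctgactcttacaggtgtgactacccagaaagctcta

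Of the 150-base windows of the exons, 4.79% in Tlr1 and 3.25% in Tlr6 occurred in the other gene. Per the study's methods, sequencing was paired-end and counting was done by STAR in its GeneCounts mode, which counts only read pairs that map to 1 place. A pair wholly inside sequence that both genes share is therefore missing from both, whereas a pair that reaches outside it can still be placed. The window shares thus do not measure the share of reads lost. The run of 229 bases is the longest that Tlr1 and Tlr6 share. The 139 shared windows of each gene are more than it can hold, so the genes share further stretches of at least 150 bases. For every other pair of receptors the longest shared run was at most 40 bases. Tlr8 and Tlr7 are also neighbours, on chromosome X (166025692 to 166047325 and 166087925 to 166113554), with 40.6 kb between them and no shared run of that length, and Tlr13 lies elsewhere on the same chromosome (105186810 to 105204099).

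RefSeq promoters were at hand for 9 of the receptor genes, in 11 entries, and the 250 bases before the start were searched on both strands for 3 motifs. The core GAGGAA of the myeloid factor PU.1 was present in 5 entries, those of Tlr1, Tlr8, Tlr9, Tlr11 and Tlr13, and in 23.3% of 32851 promoters of the same length. The interferon-stimulated response element GAAANNGAAA was present before Tlr6 and Tlr11 and in 2.98% of all promoters, and the NF-κB consensus before Tlr2 and Tlr3 and in 3.90%. A match is a description of the letters and not a bound site. The promoters below are of Tlr2 (highest level), Tlr8 and Tlr13 (lower in matIMs than moMs) and Tlr11 (higher in matIMs than moMs within Ezr-KOm). They are written along the gene's strand in GRCm38.p6, at chr3:83841609-83841858 (minus), chrX:167264330-167264579 (minus), chrX:106143025-106143274 (plus) and chr14:50357664-50357913 (plus), with capitals for the NF-κB match in Tlr2 and for GAGGAA, on either strand, in the others:

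Tlr2: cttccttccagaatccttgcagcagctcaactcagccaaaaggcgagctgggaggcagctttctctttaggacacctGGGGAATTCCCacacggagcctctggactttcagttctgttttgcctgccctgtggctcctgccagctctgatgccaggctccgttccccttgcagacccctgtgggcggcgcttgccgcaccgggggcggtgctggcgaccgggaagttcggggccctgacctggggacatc
Tlr8: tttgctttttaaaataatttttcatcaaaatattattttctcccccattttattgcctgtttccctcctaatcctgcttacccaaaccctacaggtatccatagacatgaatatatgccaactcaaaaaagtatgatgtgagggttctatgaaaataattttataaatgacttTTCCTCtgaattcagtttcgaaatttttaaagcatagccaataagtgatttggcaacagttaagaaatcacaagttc
Tlr13: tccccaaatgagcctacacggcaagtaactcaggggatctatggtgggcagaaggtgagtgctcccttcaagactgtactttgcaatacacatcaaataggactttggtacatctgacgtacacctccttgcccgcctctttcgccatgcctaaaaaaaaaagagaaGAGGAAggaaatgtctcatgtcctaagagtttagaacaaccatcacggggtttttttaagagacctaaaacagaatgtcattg
Tlr11: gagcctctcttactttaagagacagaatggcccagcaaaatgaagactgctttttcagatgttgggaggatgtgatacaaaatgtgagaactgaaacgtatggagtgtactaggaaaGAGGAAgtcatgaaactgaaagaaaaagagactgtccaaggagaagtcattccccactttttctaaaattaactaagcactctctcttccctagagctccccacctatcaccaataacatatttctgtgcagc

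The GAGGAA core thus occurred before Tlr8 and Tlr13, which were lower in matIMs than in moMs, and before Tlr11. It was absent from the entries of Tlr2, Tlr5 and Tlr6, which were lower too, and Tlr7 had no entry. Tlr1 and Tlr9, which did not pass the test in that comparison, carried it. The Tlr11 entry held the core and the interferon element, at 127 and 112 bases before the start.

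The comparison of matIMs with moMs asked how the receptors differ between the Ly6C-MHC-II+ and the Ly6C+MHC-II- gates. The word fall stands here for a difference between gates, as no lineage was followed in these libraries. In WT, 6 of the 10 receptor genes were lower in matIMs (edgeR, adjusted p under 0.05), where 11.4% of all tested genes were. None was higher, where 13.4% were. An unadjusted p under 0.05 was met by 7 of the 10, and DESeq2 called 6. With the replicate number as a block, Tlr3 and Tlr11 also passed as higher in WT, as given below. In Ezr-KOm the same 6 were lower, against 10.7% of all tested genes, and Tlr11 was higher, against 12.5%. The 6 were Tlr2, Tlr5 and Tlr6 of the surface receptors and Tlr7, Tlr8 and Tlr13 of the endosomal ones. The median difference of the 10 was -1.23 on the log2 scale in WT and -1.07 in Ezr-KOm, beside 0.013 and 0.0067 over all tested genes. The call of each of these 6 genes held in both genotypes in all 27 alternative fits.

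Tlr8 had the largest difference in WT. Its WT libraries were at 43.2, 53.0 and 53.6 CPM in moMs, 10.3, 8.5 and 17.2 in tnsIMs and 8.60, 12.1 and 14 in matIMs. Its Ezr-KOm libraries were at 32.6, 38.7 and 48.1, then 9.81, 11.5 and 23.6, then 12.4, 14.6 and 14.1. The moM libraries of both genotypes thus stood above all others, while tnsIMs and matIMs overlapped. The log2 fold change of matIMs against moMs was -2.11 ± 0.30 (SE) in WT, with an adjusted p of 3.8e-05 (edgeR), and -1.54 ± 0.30 in Ezr-KOm, with 0.00073.

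Tlr7, the neighbour of Tlr8 on chromosome X, was highest in moMs, lower in tnsIMs and lowest in matIMs. In WT it was at 79.8, 92.7 and 98.3 CPM in moMs, 34.2, 32 and 45.4 in tnsIMs and 26.7, 23.8 and 31.0 in matIMs. In Ezr-KOm the libraries were at 82.8, 94.3 and 125, then 45.7, 41.6 and 71.7, then 29.8, 28.7 and 31.5. The 3 populations did not overlap within either genotype. Its log2 fold change in matIMs against moMs was -1.73 ± 0.21 in WT and -1.75 ± 0.21 in Ezr-KOm, with adjusted p-values of 4.4e-06 and 4.0e-06 (edgeR).

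Tlr13, the receptor for bacterial ribosomal RNA, had the highest level of the endosomal receptors throughout. The WT libraries were at 286, 430.3 and 467 CPM in moMs, 163, 156 and 277 in tnsIMs and 109, 116 and 177 in matIMs. The Ezr-KOm libraries were at 259, 404 and 447, then 158, 167 and 309, then 119.8, 145 and 156. In each of the 6 groups the library numbered 3 was the highest for Tlr13, as it was for Tlr7, and it was so in 5 groups for Tlr6, Tlr8 and Tlr11. Tlr13 fell by 1.56 ± 0.30 on the log2 scale in WT matIMs (adjusted p = 0.00063, edgeR) and by 1.4 ± 0.29 in Ezr-KOm (0.0016).

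Of the surface receptors, Tlr2 had the smallest standard errors. Its WT libraries were at 1444, 1667 and 1488 CPM in moMs, 1234, 1385 and 1326 in tnsIMs and 768, 769 and 718 in matIMs. Its Ezr-KOm libraries were at 1399, 1530.0 and 1565, then 1244, 1161 and 1514, then 762, 749 and 673. All 6 matIM libraries lay below every moM and tnsIM library. The log2 fold change of matIMs against moMs was -1.03 ± 0.13 in WT and -1.04 ± 0.13 in Ezr-KOm, with adjusted p-values of 6.22e-06 and 5.56e-06 (edgeR).

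Both partners of TLR2 lie on chromosome 5, and only Tlr6 passed the test. WT libraries of Tlr6 were at 31.8, 35.7 and 47.8 CPM in moMs, 14.4, 25.6 and 30.4 in tnsIMs and 12.8, 13.5 and 16.5 in matIMs, and those of Ezr-KOm at 25.1, 35.0 and 48.0, then 20.1, 17.1 and 23.7, then 11.5, 19.6 and 19.1. Its fold change in matIMs against moMs was -1.43 ± 0.28 on the log2 scale in WT (adjusted p = 0.00083, edgeR) and -1.11 ± 0.28 in Ezr-KOm (0.0061). Tlr1 in WT was at 69.3, 80.2 and 75.4 CPM in moMs, 70.2, 61.4 and 91.8 in tnsIMs and 50.2, 60.0 and 70.2 in matIMs. Its log2 difference between matIMs and moMs was -0.32 in WT, with a 95% interval from -0.70 to 0.06, and -0.28 in Ezr-KOm, from -0.66 to 0.10. Tlr5, the flagellin receptor, was at 6.77, 8.66 and 6.46 CPM in WT moMs and at 2.44, 1.92 and 3.17 in WT matIMs, and at 4.82 to 7.05 and 0.713 to 2.34 in Ezr-KOm. It rested on 17 to 209 reads a library and was lower, with a log2 fold change of -1.54 ± 0.36 in WT (adjusted p = 0.0038, edgeR) and -2.05 ± 0.37 in Ezr-KOm (0.00046). For reference, Tlr4 fell by 1.58 ± 0.28 and 1.86 ± 0.28.

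The cell markers moved with these differences. The 5 monocyte markers summed to 4869 to 5535 CPM in WT moMs and 794 to 1111 in WT matIMs, and the mature dendritic cell and Zbtb46 values were higher in matIMs, as given above. The neutrophil markers were mixed: the means of Mmp8 and Csf3r were 377 and 389 CPM in WT moMs and 11.4 and 129 in WT matIMs, whereas S100a8, S100a9, Cxcr2 and Ly6g had the higher mean in WT matIMs, with S100a9 at 71.0 against 15.7 CPM and Ly6g at no more than 0.918 CPM in any WT library. Summed B cell markers, all 5 of the list in the table, were at 8.77 to 13.2 CPM in WT moMs and 147 to 219.8 in WT matIMs. Their part in the receptor differences was not tested.

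**Figure D2:**
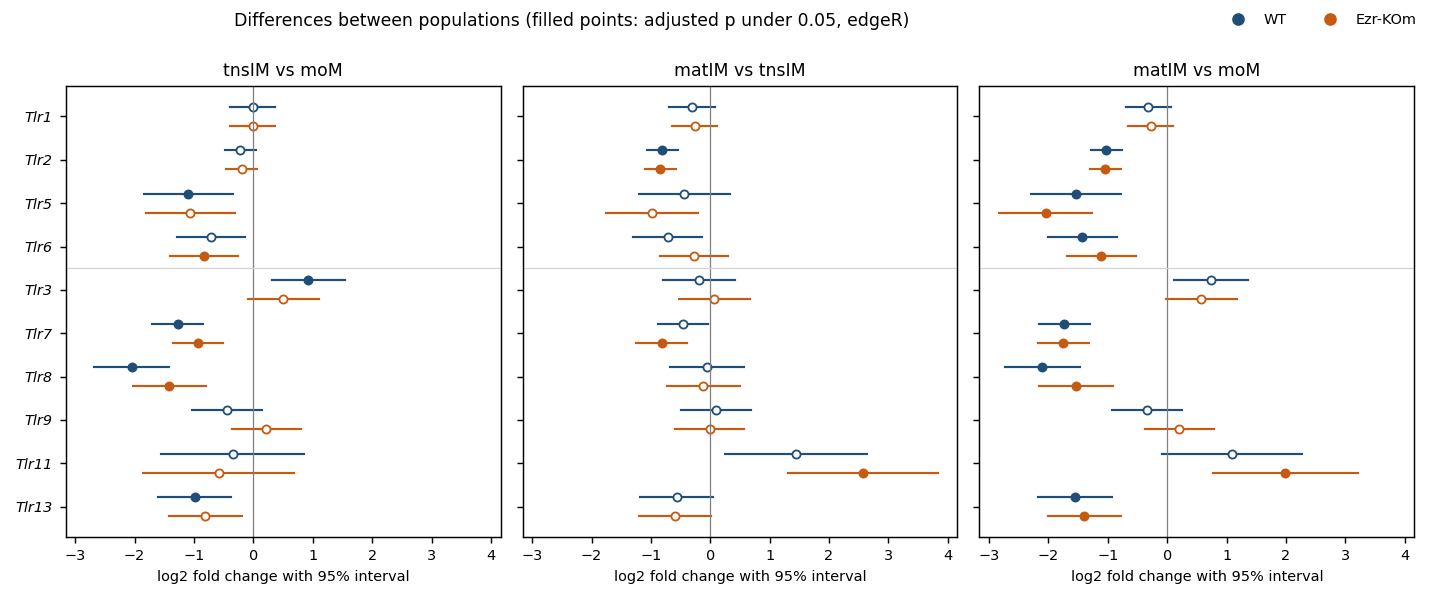
Log2 fold change between populations (horizontal axis, with 95% interval) for the 4 surface receptors (above the grey line) and the 6 endosomal ones, WT in blue and Ezr-KOm in orange, filled where the adjusted p was under 0.05. In matIMs against moMs 6 genes are filled on the left in both genotypes and Tlr11 on the right in Ezr-KOm, and in tnsIMs against moMs Tlr8 lies farthest left, at -2.05 and -1.41.

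The other 4 receptors, Tlr1 among them, did not pass the test in this direction. Tlr11 was at 1.14, 2.32 and 3.94 CPM in WT moMs, 1.21, 0.951 and 3.60 in WT tnsIMs and 1.64, 5.17 and 9.17 in WT matIMs, and at 1.17, 1.12 and 1.98, then 0.914, 0.599 and 1.4, then 4.16, 6.88 and 5.95 in Ezr-KOm. The matIM libraries of Ezr-KOm lay above all moM and tnsIM libraries of that genotype, whereas those of WT overlapped both. The log2 fold change of matIMs against moMs was 1.99 ± 0.58 in Ezr-KOm (adjusted p = 0.017, edgeR) and 1.10 ± 0.56 in WT (0.17). In WT the adjusted p was under 0.05 in 2 of 27 alternative fits, both by edgeR with the replicate number as a block. It was 0.047 with the block and 0.028 with the block within genotype. The difference between the genotypes, 0.89 with a 95% interval from -0.78 to 2.57, was not past the threshold (adjusted p = 1.00). Without moM Ezr-KOm replicate 1, moM Ezr-KOm replicate 2 or matIM Ezr-KOm replicate 2 the adjusted p in Ezr-KOm was 0.059, 0.068 and 0.055. The gene rested on 15 to 246 reads a library. The 5 markers of type 1 conventional dendritic cells, cells known to express Tlr11 and Tlr3, summed to 104 to 119 CPM in Ezr-KOm moMs and 196 to 201 in Ezr-KOm matIMs, mainly through Wdfy4 (means of 81.2 and 135 CPM) and Batf3 (20.7 and 45.2). Itgae and Clec9a were low but also higher in Ezr-KOm matIMs, without overlap. Itgae was at 0.13 to 0.96 CPM in Ezr-KOm moMs and 6.67 to 12.8 in Ezr-KOm matIMs, and Clec9a at 0.31 to 0.83 and 2.72 to 4.37. The defining marker Xcr1 did not follow, at 4.76 to 10.4 CPM in Ezr-KOm moMs and 4.32 to 5.77 in Ezr-KOm matIMs. WT libraries had a like pattern, with sums of 99.7 to 112 CPM in moMs and 203 to 246 in matIMs. Mean Itgae was 0.358 CPM in WT moMs and 8.60 in WT matIMs, mean Clec9a 0.948 and 4.05, and mean Xcr1 6.26 and 3.76. The part of these markers in the Tlr11 difference was not tested.

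Tlr3 was at 3.76, 2.36 and 3.62 CPM in WT moMs, 5.01, 5.64 and 7.80 in WT tnsIMs and 4.97, 5.94 and 5.25 in WT matIMs, so that all WT moM libraries lay below the others. In Ezr-KOm the values were 5.31, 3.36 and 6.57, then 6.77, 5.07 and 9.83, then 7.92, 8.67 and 6.04, and the populations overlapped. Its log2 difference between matIMs and moMs was 0.73 ± 0.30 in WT (adjusted p = 0.080, edgeR) and 0.57 ± 0.29 in Ezr-KOm (0.17). The WT value passed in 2 of 27 alternative fits, with the replicate block (adjusted p = 0.042, edgeR) and with library totals (0.0499). Tlr9 stayed between 2.43 and 5.29 CPM in all 18 libraries, with log2 differences of -0.34 (95% interval from -0.93 to 0.25) in WT and 0.20 (from -0.38 to 0.79) in Ezr-KOm.

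The comparison of tnsIMs with moMs, which share Ly6C and differ in MHC-II at the gate, asked which receptors differ between these gates. In WT, 4 receptor genes were lower (Tlr5, Tlr7, Tlr8 and Tlr13), where 8.61% of all tested genes were lower, and Tlr3 was higher, where 13% were. In Ezr-KOm, 3 were lower (Tlr6, Tlr7 and Tlr8), against 5.04% of all genes, and none higher, against 9.23%, with 5 of the 10 at an unadjusted p under 0.05 and 5 called by DESeq2. Tlr8 fell most, with a log2 fold change of -2.05 ± 0.30 in WT (adjusted p = 9.0e-05, edgeR) and -1.41 ± 0.29 in Ezr-KOm (0.0027). Tlr7 fell by 1.28 ± 0.20 (0.00019) and 0.93 ± 0.20 (0.0037). The calls of Tlr7 and Tlr8 held without any 1 library.

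The other calls in this comparison did not. In WT, Tlr13 differed by -0.99 ± 0.29 on the log2 scale, Tlr5 by -1.10 ± 0.36 and Tlr3 by 0.93 ± 0.30, with adjusted p-values of 0.021, 0.035 and 0.032 (edgeR). Only 2 receptors were called without moM WT replicate 2 and 2 without moM WT replicate 3, and 3 without tnsIM WT replicate 2. Leaving out tnsIM WT replicate 1 took the call from Tlr13 (adjusted p = 0.065), leaving out tnsIM WT replicate 3 took it from Tlr3 (0.10) and Tlr5 (0.083), and leaving out moM WT replicate 1 took it from Tlr5 (0.052). In Ezr-KOm, Tlr6 differed by -0.83 ± 0.27 with an adjusted p of 0.0499, which was lost in 17 of 27 alternative fits and reached 0.28 without moM Ezr-KOm replicate 3. Tlr5 and Tlr13 differed by -1.06 and -0.81 in Ezr-KOm (adjusted p = 0.055 and 0.073). When the replicate number entered as a block, both passed, with adjusted p-values of 0.038 and 0.00089, which made 5 calls in Ezr-KOm, and Tlr6 passed in WT (-0.74, adjusted p = 0.0041). Calls over all genes rose with the block from 2257 to 3185 in Ezr-KOm and from 3411 to 4572 in WT. In WT tnsIMs Tlr2 differed from moMs by -0.22 on the log2 scale (95% interval from -0.48 to 0.04) and Tlr1 by -0.01 (from -0.39 to 0.37). The summed epithelial markers, 1462 to 3070 CPM in Ezr-KOm tnsIMs against 17.7 to 117 in Ezr-KOm moMs, moved with this comparison, and their part in the Tlr3 and Tlr5 differences was not tested.

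In matIMs against tnsIMs, which share MHC-II and differ in Ly6C at the gate, Tlr2 was the receptor called in both genotypes. It fell by 0.81 ± 0.13 on the log2 scale in WT (adjusted p = 0.00012, edgeR) and by 0.84 ± 0.13 in Ezr-KOm (8.0e-05). In WT it was the only one lower, where 10.2% of all tested genes were lower, and none was higher, where 8.32% were, although 4 of the 10 had an unadjusted p under 0.05 and DESeq2 called 2. In Ezr-KOm, Tlr7 was lower as well, by 0.82 ± 0.20 (0.0067), against 9.85% of all genes, and Tlr11 was higher by 2.57 ± 0.60 (0.0044), against 8.37%. When the replicate number entered as a block, 5 receptors were called in WT: Tlr6 (-0.67, adjusted p = 0.0095), Tlr7 (-0.45, 0.021), Tlr11 (1.41, 0.013) and Tlr13 (-0.56, 0.013) passed beside Tlr2, and Tlr13 passed in Ezr-KOm (-0.53, 0.018). The block raised the calls over all genes too, from 2926 to 3654 in WT and from 2881 to 3696 in Ezr-KOm. In WT 2 receptors were called without moM Ezr-KOm replicate 1 or tnsIM WT replicate 1, when Tlr6 passed, and without tnsIM WT replicate 3 or matIM WT replicate 1, when Tlr11 did. Tlr8 did not pass the test here, with log2 differences of -0.06 (95% interval from -0.68 to 0.57) and -0.12 (from -0.74 to 0.49).

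The ratio of Tlr6 to Tlr1, the alternative partners of TLR2, averaged 0.512 ± 0.105 (SD, n = 3) in WT moMs, 0.318 ± 0.106 in WT tnsIMs and 0.238 ± 0.015 in WT matIMs. In Ezr-KOm it averaged 0.459 ± 0.129, 0.260 ± 0.0065 and 0.255 ± 0.046. Over both genotypes the mean log2 ratio differed by -0.96 between matIMs and moMs and by -0.76 between tnsIMs and moMs. Read pairs wholly inside sequence that both genes share count for neither gene, which bears on the level of this ratio in all libraries.

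The ratio of Tlr8 to Tlr7 averaged 0.553 ± 0.017 in WT moMs, 0.314 ± 0.058 in WT tnsIMs and 0.427 ± 0.096 in WT matIMs, and 0.396 ± 0.013, 0.273 ± 0.057 and 0.458 ± 0.047 in Ezr-KOm. Its mean was lowest in tnsIMs in both genotypes, with a log2 difference over both of -0.69 from moMs and with matIMs 0.60 above tnsIMs, and matIMs and moMs differed by -0.10. Both ratios were chosen after their values were seen and are descriptions, with no test, and libraries share replicate numbers across genotypes and populations.

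**Figure D3:**
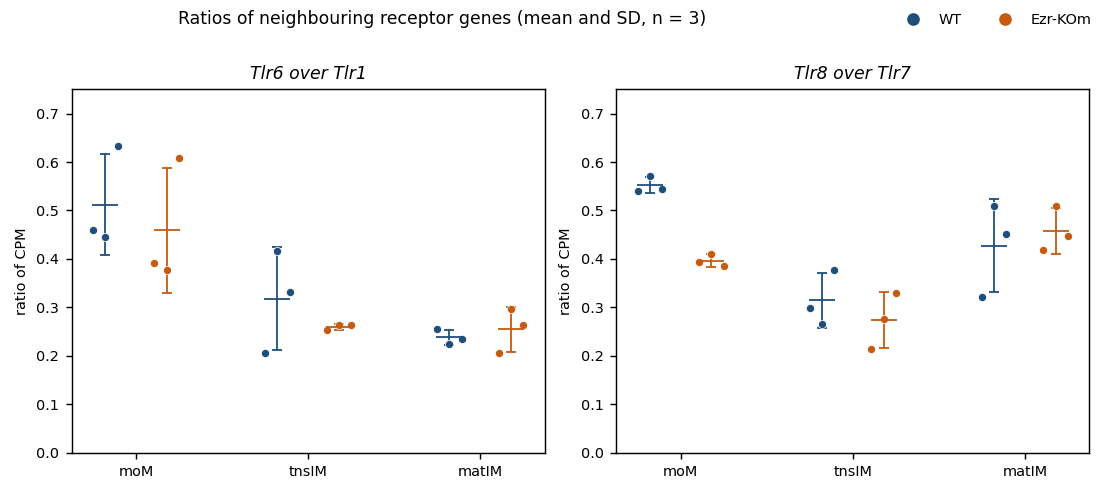
Ratio of CPM (vertical axis, from 0) of Tlr6 to Tlr1 and of Tlr8 to Tlr7 in each library, WT in blue and Ezr-KOm in orange, with mean and SD of 3 libraries. The mean of the first ratio is highest in moMs in both genotypes, and that of the second is lowest in tnsIMs, whose libraries lie at 0.215 to 0.378.

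The comparison of Ezr-KOm with WT asked whether loss of ezrin, a linker of membrane proteins to actin, came with a different receptor profile in any population. No receptor gene was called in moMs, tnsIMs or matIMs by edgeR at an adjusted p under 0.05, where 0.171%, 0.164% and 0.152% of all tested genes were, nor by DESeq2 or in any of the 26 alternative fits. By the study's rule (a log2 fold change beyond 0.75 in either direction and an unadjusted p under 0.05) the count was also 0 of 10 in each, where 2.51%, 1.83% and 2.4% of all genes passed. The unadjusted p was under 0.05 for 1 receptor in moMs (Tlr3), 1 in tnsIMs (Tlr7) and 0 in matIMs. Averaged over the 3 populations the count was 0 as well, against 0.854% of all genes, with an unadjusted p under 0.05 for Tlr3 and Tlr7.

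The intervals bound the genotype difference that these libraries could show. For Tlr2 the log2 difference of Ezr-KOm from WT was -0.05 in matIMs, -0.01 in tnsIMs and -0.03 in moMs, and the 3 intervals together ran from -0.31 to 0.25. For Tlr1, Tlr7 and Tlr13 the bounds lay between -0.70 and 0.93. For Tlr11 the difference was -0.81 in moMs and -1.04 in tnsIMs with intervals down to -2.03 and -2.30, and its coefficient of variation between replicates was 57.0% and 76.1% in the WT libraries of these populations.

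Tlr3 was the receptor with the highest positive difference in moMs and matIMs. The difference was 0.65 ± 0.30 on the log2 scale in moMs, 0.49 ± 0.29 in matIMs and 0.22 ± 0.29 in tnsIMs, and the average was 0.45 ± 0.17, with an adjusted p of 0.41 (edgeR). In matIMs its 3 Ezr-KOm libraries, at 6.04 to 8.67 CPM, lay above the 3 WT libraries, at 4.97 to 5.94, the 1 case among 30 of groups that did not overlap. In matIMs 10.1% of all tested genes had groups that did not overlap, in moMs 8.52% and in tnsIMs 5.81%. Tlr7 was 0.51 ± 0.20 higher on the log2 scale in Ezr-KOm tnsIMs, where its libraries overlapped (41.6 to 71.7 against 32 to 45.4 CPM), and 0.16 and 0.14 higher in moMs and matIMs, with an average of 0.27 ± 0.12 (adjusted p = 0.54). Tlr5 differed by -0.78 ± 0.37 in matIMs, at 0.713 to 2.34 against 1.92 to 3.17 CPM.

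**Figure D4:**
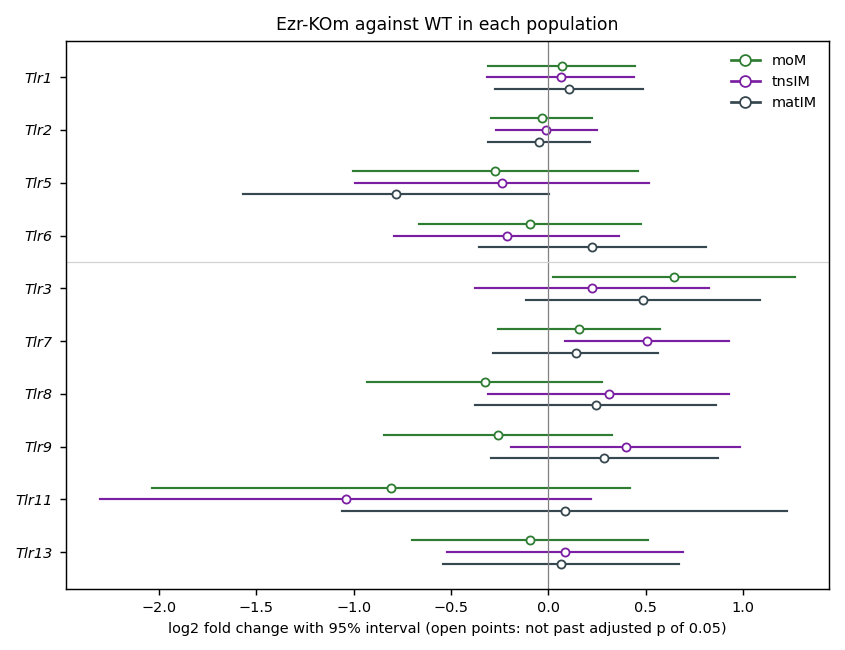
Log2 fold change of Ezr-KOm against WT (horizontal axis, with 95% interval) for each receptor in moMs (green), tnsIMs (purple) and matIMs (grey). All 30 points are open, meaning that none passed an adjusted p of 0.05, and the intervals are narrowest for Tlr2 and widest for Tlr11.

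The differences between populations were also compared between genotypes, as interactions. No receptor passed for any pair of populations, where 0% of the tested genes did, and none had an unadjusted p under 0.05 (edgeR, with none called by DESeq2). The interaction with the smallest p was that of Tlr9 in tnsIMs against moMs, at 0.65 with a 95% interval from -0.17 to 1.48. For Tlr8 the fall from moMs to tnsIMs was 0.64 smaller in Ezr-KOm on the log2 scale, with an interval from -0.22 to 1.5, so these libraries show neither a like nor an unlike fall.

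The genes that serve the receptors were listed in 3 groups: 22 partners (chaperones, proteases, co-receptors and transporters), 21 signalling genes and 8 negative regulators, of which 7 passed the filter. Of the partners, 11 were lower and 4 higher in WT matIMs than in WT moMs, and 10 and 2 in Ezr-KOm, with a median of -0.45 in both on the log2 scale. Over all tested genes 11.4% were lower and 13.4% higher in WT, and 10.7% and 12.5% in Ezr-KOm, so the counts of higher partners are near those of all genes. Lbp, the LPS-binding protein, had the largest difference, at -3.54 ± 0.34 in WT and -3.01 ± 0.33 in Ezr-KOm (adjusted p = 3.3e-07 and 1.6e-06, edgeR). Cd14, the co-receptor that hands ligands to several receptors, fell by 1.33 ± 0.19 and 1.43 ± 0.19, and the protease genes ran apart, with Ctsl at -1.32 and -1.45 and Ctsk at 2.14 and 1.99. Unc93b1, singled out after its values were seen because the endosomal receptors need it, differed by -0.58 ± 0.14 in WT (adjusted p = 0.0050) and -0.46 ± 0.14 in Ezr-KOm (0.025), a smaller log2 difference than those of Tlr7, Tlr8 and Tlr13. The Ezr-KOm call of Unc93b1 was lost without moM replicate 1, moM replicate 3 or matIM replicate 1 of that genotype (adjusted p = 0.079, 0.079 and 0.11).

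In matIMs against moMs 4 of the 21 signalling genes were lower in WT and 2 in Ezr-KOm, where 11.4% and 10.7% of all genes were, so the Ezr-KOm count is near that of all genes. None was higher, and the medians were -0.23 and -0.22. The WT count moved with the processing, from 2 with library totals to 8 in other fits, and was 7 without tnsIM Ezr-KOm replicate 3. Ikbke, a kinase of the interferon arm, fell by 1.13 ± 0.17 in both genotypes (adjusted p = 6.05e-05 in both, edgeR), and Myd88, the adaptor shared by 9 of the 10 receptors, by 0.67 ± 0.12 and 0.62 ± 0.12 (0.00032 and 0.00064). Irak4, the kinase that MyD88 recruits, differed by -0.53 in WT (0.017) and -0.41 in Ezr-KOm (0.065, and under 0.05 in 9 of 27 alternative fits), and the difference between the genotypes, 0.12 with a 95% interval from -0.34 to 0.58, was not past the threshold. Of the 7 negative regulators tested, Sigirr was higher, by 0.78 ± 0.23 in WT (0.016, and 0.062 without moM WT replicate 1, when 1 of the list was called) and 1.34 ± 0.23 in Ezr-KOm (0.00026), and Irak3 lower, by 0.76 ± 0.14 and 0.72 ± 0.14 (0.00061 and 0.0010).

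Between tnsIMs and moMs, 1 partner was higher and 3 lower in WT, and 1 and 2 in Ezr-KOm, with Cd36 up by 1.38 and 1.05 and Pld4, an endosomal exonuclease, down by 0.79 in both. Over all tested genes 13% were higher and 8.61% lower in WT, and 9.23% and 5.04% in Ezr-KOm. These partner counts are near those shares. When the replicate number entered as a block, 11 partners were called in WT and 7 in Ezr-KOm, and leaving out tnsIM Ezr-KOm replicate 3 gave 5 in Ezr-KOm. The signalling genes had 6 lower in WT, led by Irak4 (-0.88), Ikbkb (-0.84) and Tab2 (-0.74), and 4 lower in Ezr-KOm, of which 2 remained in number without moM Ezr-KOm replicate 3 or tnsIM Ezr-KOm replicate 1. No negative regulator was called in either genotype (2 and 1 at an unadjusted p under 0.05, edgeR; DESeq2 called 1 in WT; the block gave 2 in WT). Between matIMs and tnsIMs, 7 partners were lower and 1 higher in WT, 5 in all without tnsIM WT replicate 1, and 6 were lower in Ezr-KOm, with Lbp at -3.55 and -2.86. Over all tested genes 10.2% were lower and 8.32% higher in WT, and 9.85% and 8.37% in Ezr-KOm. The signalling counts of the main fit are near those shares. Of the signalling genes Ikbke was lower in both (-1.56 and -1.31) and Ikbkb higher in Ezr-KOm (0.49), a call that was lost without tnsIM Ezr-KOm replicate 1 or 2 or matIM Ezr-KOm replicate 2 or 3, which each left 1 call. When the replicate number entered as a block, 2 signalling genes were called in WT and 4 in Ezr-KOm. Of the negative regulators Sigirr (1.13 and 1.30) and Cyld (0.75 and 0.70) were higher and Irak3 lower (-0.83 and -0.69) in both genotypes. No gene of the 3 lists was called between the genotypes in any population, where 0, 0 and 1 signalling genes and no gene of the other lists had an unadjusted p under 0.05, and DESeq2 called none. Over all tested genes 0.171%, 0.164% and 0.152% were called between the genotypes in moMs, tnsIMs and matIMs.

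The genes whose log2 CPM ran most like each receptor over the 18 libraries were found by Pearson's r. The 18 libraries share 3 populations, so that any gene that differs between populations scores high, and the values are descriptions. Tlr2 ran most like Tarm1 (r = 0.978), the scavenger receptor gene Msr1 (0.976) and Csf1r (0.970), the receptor for the macrophage growth factor. Tlr6 was closest to Ccr2 (0.944), the chemokine receptor of inflammatory monocytes, Tlr7 to Sirpb1c (0.972), Tlr8 to Nhsl2 (0.983), Tlr13 to Nlrx1 (0.974) and Tlr5 to Rspo1 (0.932). Tlr11 was closest to Fnbp1 (0.912), Tlr3 to Gca (0.911) and Tlr1 to Sgtb (0.879). Tlr9, which passed no test between populations, had no gene above 0.723 (Gm47830). Among the 10 receptors the highest r was that of Tlr7 and Tlr13, at 0.947.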

How the data were processed

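The authors deposited raw read counts per gene for 18 libraries, made per the labels and the methods with SMART-Seq v4 and Nextera XT, checked with FastQC and aligned and counted with STAR 2.7.9a (GeneCounts mode, uniquely mapped reads) on GRCm39. Whether the counting used strand is not given in the sources used here. Genes were kept by filterByExpr of edgeR 4.0.16 (minimum count 10), scaled by TMM and fitted in 1 quasi-likelihood model of 6 groups in R 4.3.3, with Benjamini-Hochberg adjustment over 15811 genes and a call at an adjusted p under 0.05. DESeq2 1.42.0 was an alternative, beside other scalings, filters, a replicate block and fits without each library. Log2 CPM used a prior count of 2. RPKM used the union of exons of a later Gencode release than the one the study counted with. With the longest transcript in place of the union, 10 levels moved by more than their SD. Tlr5 in WT moMs went from 1.09 to 1.40 RPKM, above Tlr9 at 1.19. On simulated counts for matIM against moM in WT (15361 genes, 200 changed by a log2 of 2), edgeR recovered 73.5% and 2% of its calls were false. DESeq2 recovered 78%, and 7.69% of its calls were false. The simulated libraries were drawn independently, without shared deviations of same-numbered libraries.

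The 10 receptors and the lists were chosen with earlier results of these data known. Of each list the 3 called genes with the largest change per comparison were named, and further genes where the text says so. Same-numbered libraries deviated together between genotypes (9 pairs, r from 0.102 to 0.316) and between tnsIMs and the other populations, so blocked values stand beside results there whose call they change. Between matIMs and moMs of a genotype the same-numbered pairs ran from 0.0905 to 0.2635, above all differently numbered ones (at most 0.0316). Blocked values of that comparison are given with Tlr3 and Tlr11 and among the closing observations. The pairing is a reading of the data, not of the labels. The study's methods text and the labels give the matIM gate differently, and the labels were followed. Replicates differed beyond sampling noise, with a chi-square per degree of freedom of at least 21.9.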

Additional observations from a re-analysis of the deposited data

How the results depend on the processing

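Beside leaving out libraries, 1041 of 1102 values kept their direction and side of the threshold, 13 lost the call, 42 gained it and 6 turned sign. Without 1 library each, 2151 of 2250 did, 47 lost the call, 27 gained it and 25 turned sign. The cause of these changes was not tested. The number of receptors called between matIMs and tnsIMs in WT (1) was 2 with DESeq2, 2 with upper-quartile scaling, 5 with the replicate block and 5 with the block within genotype, and 1 to 2 without 1 library. Between tnsIMs and moMs in Ezr-KOm (3) it was 5 with DESeq2 and 5 with either replicate block, and in WT (5) it was 2 to 6 without 1 library. Between matIMs and moMs in WT (6) the replicate block gave 8, with Tlr3 (adjusted p = 0.042) and Tlr11 (0.047) added, and 8 signalling genes in place of 4, and in Ezr-KOm it called Irak4 (0.033), and no receptor passed between genotypes with the block. Signs turned for values that were not called: Tlr1 in tnsIMs against moMs in WT was 0.00979 with DESeq2, 0.0817 with upper-quartile scaling, 0.0667 with library totals, 0.0399 with at least 10 counts in every library and -0.165 to 0.132 without 1 library. The genotype difference of Tlr2 in tnsIMs was 0.00217 with library totals, 0.00349 when fitted alone and -0.0928 to 0.0674 without 1 library. Without 1 library Tlr2 ran from -0.0806 to 0.0370 in moMs and from -0.0825 to 0.0183 in matIMs, Tlr7 in moMs from -0.0329 to 0.265, Tlr3 in tnsIMs from -0.0190 to 0.429, Tlr9 in Ezr-KOm matIMs against moMs from -0.0229 to 0.389, and Tlr8 in matIMs against tnsIMs from -0.269 to 0.245 in WT and -0.350 to 0.307 in Ezr-KOm. Library totals shifted the median of all genes in matIMs against moMs to 0.11 in WT and 0.13 in Ezr-KOm, where 64.4% and 66.1% of calls were then higher, beside 2116 of 3926 and 1984 of 3679. In Ezr-KOm tnsIMs against moMs 76.7% were, beside 1460 higher and 797 lower. With library totals the calls of Irak4 in WT matIMs (adjusted p = 0.082) and Unc93b1 in Ezr-KOm matIMs (0.096) against moMs were lost. DESeq2 called 55, 55 and 52 of all genes between genotypes in moMs, tnsIMs and matIMs, beside 27, 26 and 24, and 230 on average over populations, beside 135. Read counts were lowest for Tlr11 and Tlr5, from 15 and 17 reads a library.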

Other observations

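The ratio of Tlr8 to Tlr7 was 0.541 to 0.572 in the WT moM libraries and 0.385 to 0.411 in those of Ezr-KOm, without overlap and with a log2 difference of -0.48. Neither gene alone passed a test between the genotypes in moMs, where the intervals of the log2 difference ran from -0.26 to 0.57 for Tlr7 and from -0.93 to 0.27 for Tlr8. The ratio was singled out after its values were seen, so no test is given.

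Tlr12, whose product pairs with TLR11 in profilin detection, was at 0.171 to 1.06 CPM in WT moMs, 0.444 to 4.15 in WT tnsIMs and 1.2 to 4.70 in WT matIMs. In Ezr-KOm it was at 0.347 to 0.826, 0.978 to 1.83 and 2.51 to 4.23 CPM.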
